A study of Mus musculus with 9 samples.

Results

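Cell division in the early embryo runs on cyclins, their kinases, the spindle, the kinetochore and the ring complexes that hold and fold chromosomes. The transcripts described here are those of 60 such genes, chosen by symbol from the 19359 genes of the expression table and all found in it. They comprise 10 cyclins, 12 cyclin-dependent kinases (CDKs) and CDK regulators, 8 mitotic kinases and passenger complex subunits, 5 spindle checkpoint genes, 7 kinetochore and centromere genes, 6 spindle and cytokinesis genes, 7 genes of cohesin and its release, and 5 condensin subunits. The samples were mouse embryos taken at 34 h after fertilization, and each of the 9 libraries held poly(A) RNA of 3 pooled embryos. SPN embryos had a sham pronuclear transfer and are the control, EPN embryos had the pronuclei transferred early, and LPN embryos had them transferred later, with libraries A, B and C in each group. According to the labels' protocols, which are worded alike for the 3 groups, eggs came from B6D2F1 females of 8 to 12 weeks stimulated with PMSG and hCG, and GV oocytes were selectively enucleated to prepare cytoplasts. The clock times of the transfers and the sires are not stated in the labels.

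As background, cyclins rise and fall to switch their kinases on and off: D and E cyclins act before and at the start of DNA replication, and A and B cyclins act through replication into mitosis. Cyclin B1 with CDK1 drives entry into mitosis, WEE1 holds CDK1 back and CDC25 phosphatases release it. Chromosomes are folded by condensin, held as sister pairs by cohesin, captured by the kinetochore and moved by the spindle. The mouse egg carries a large maternal store of these transcripts, and around the 2-cell stage maternal RNA is degraded while the embryonic genome starts to be transcribed.

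Library totals ran from 7611781 reads in LPN B to 15559218 reads in LPN A, and between 12820 and 14045 genes reached 1 CPM, where CPM is the number of reads scaled to a common library total. A single read was worth 0.0643 to 0.131 CPM. All 7 markers of the 2-cell stage were present, with a summed level of 1159 to 2150 CPM in SPN, 2433 to 3850.4 CPM in EPN and 3058 to 4665 CPM in LPN, and 6 oocyte markers summed to 2234 to 2717 CPM, 1560.3 to 1852 CPM and 973 to 1278 CPM. Of 8 cumulus and granulosa markers 5 were listed, at 6.56 to 26.0 CPM in sum, with Foxl2 at 0 throughout. Of 6 sperm markers 4 were listed, at 1.80 to 12.3 CPM, and of 6 blood markers 2 were listed, at 36.0 to 100.4 CPM in SPN, 33.9 to 79.8 CPM in EPN and 9.32 to 26.1 CPM in LPN. Of 5 trophectoderm markers 4 were listed, at 13 to 66.7 CPM. How far these markers bear on the values below was not tested. Because the libraries are whole embryos, a smaller share of cells or embryos at a given stage and less RNA per cell cannot be told apart in any value below. On the log2(CPM + 1) scale the sham library SPN A was set against the EPN mean and the mean of SPN B and SPN C. It lay nearer to the EPN mean for 44 of the 59 tested members (74.6%) and for 61.5% of all tested genes. SPN B and SPN C were not counted in this way. The EPN mean also rests on more libraries than the mean of SPN B and SPN C. These shares alone therefore do not set SPN A apart. The members' calls without SPN A are given below.

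Many genes of mitosis carry in their promoters a cell cycle homology region (CHR), which binds the DREAM and MuvB complexes, with CCAAT boxes for the NF-Y factor upstream, while genes of replication more often carry E2F sites. The sequences of 5 of the 9 members that differed between LPN and SPN are shown because they display these letters beside genes that moved in both directions. They come from RefSeq promoter windows of GRCm38.p6, each running 5′ to 3′ from 110 bases before to 20 bases after the transcription start. Capitals mark 3 motifs, each searched on both strands. The CHR was searched as TTTGAA and, in its other common form, as TTCGAA. The CCAAT box was searched by the 5 letters of its name. An E2F core was searched as TTTCGCG and with the same weight as TTCCCGC, which was joined by a further form written TTGGCGC. Ccnb1 is at chr13:100786467-100786596 (minus strand), Prc1 at chr7:80294366-80294495 (plus strand), Ncapg at chr5:45669815-45669944 (plus strand), Ttk at chr9:83834579-83834708 (plus strand) and Cdc25b at chr2:131186838-131186967 (plus strand). The first 3 of these genes rose in LPN and the other two fell.
Ccnb1: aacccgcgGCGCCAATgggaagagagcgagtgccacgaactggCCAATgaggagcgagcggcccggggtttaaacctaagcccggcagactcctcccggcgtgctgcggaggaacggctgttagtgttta
Prc1: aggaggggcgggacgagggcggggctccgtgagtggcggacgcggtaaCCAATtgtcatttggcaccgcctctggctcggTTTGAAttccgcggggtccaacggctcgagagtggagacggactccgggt
Ncapg: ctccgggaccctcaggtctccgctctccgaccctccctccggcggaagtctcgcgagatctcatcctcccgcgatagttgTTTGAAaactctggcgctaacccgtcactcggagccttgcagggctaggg
Ttk: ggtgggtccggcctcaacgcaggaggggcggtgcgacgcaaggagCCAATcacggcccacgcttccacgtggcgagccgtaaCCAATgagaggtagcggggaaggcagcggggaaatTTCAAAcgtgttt
Cdc25b: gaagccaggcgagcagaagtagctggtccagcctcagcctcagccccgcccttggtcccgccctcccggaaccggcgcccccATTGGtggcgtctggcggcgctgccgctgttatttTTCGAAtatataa

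In Prc1 and Ncapg the CHR letters TTTGAA lay at bases -30 to -25 from the start, counted back from the first transcribed base, and in Ttk (on the other strand) and Cdc25b (TTCGAA) at bases 8 to 13. Prc1 had a second annotated start upstream, from which the same letters lay across the start. Ccnb1 had CCAAT at bases -99 to -95 and -67 to -63, the first of which overlapped E2F letters at -102 to -96. Over the whole windows, which reach from 250 bases before to 50 bases after the start, CHR letters occurred in 4 of the 9 members that differed, CCAAT in 6 and E2F letters in 4. Among the 11349 tested genes with a window, counted the same way over any window, 17.5% had CHR letters, 44% CCAAT and 14.6% E2F letters; over all 32851 windows of the annotation the shares were 19.2%, 37.4% and 7.52%. Of the members that rose, 2 of 5 had CHR letters, and of those that fell, 2 of 4. A window was found for 46 of the 60 members, under 80%, so a share over the whole set is void. Among those 46, CHR letters occurred in 24, CCAAT in 32 and E2F letters in 13, so they were not confined to the members that differed. Such letters are a description and not a measured binding site.

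Later transfer and sham form the comparison that held nearly all the calls among these genes. Its question is which RNA levels go with moving the pronuclei late. Prc1, Cdk4, Smc1a, Ncapg and Ccnb1 rose, while Cdc25b, E2f1, Ttk and Plk4 fell. That is 9 of the 59 members tested (15.3%), 5 higher and 4 lower, where 8.8% of all 14876 tested genes were called, 3.26% as higher and 5.54% as lower. A call here is an adjusted p under 0.05 from limma on log2(CPM + 1), adjusted by the Benjamini-Hochberg method over all tested genes, and genes were tested where at least 3 libraries reached 1 CPM. The other 50 tested members did not pass. A further member, the germline cyclin gene Ccna1, was not tested because it reached 1 CPM in SPN B and SPN C only. The groups did not overlap for 20 members (33.9%, against 27.5% of all tested genes), 14 that were higher in LPN (23.7%, against 11.3% of all tested genes) and 6 that were lower (10.2%, against 16.2%). The median log2 difference was 0.04 over the tested members and -0.17 over all tested genes. Median-of-ratios scaling moved these to 0.22 and -0.02; it changed the split of all calls from 485 higher and 824 lower to 675 and 541, and that of the members from 5 and 4 to 6 and 3.

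**Figure D1:**
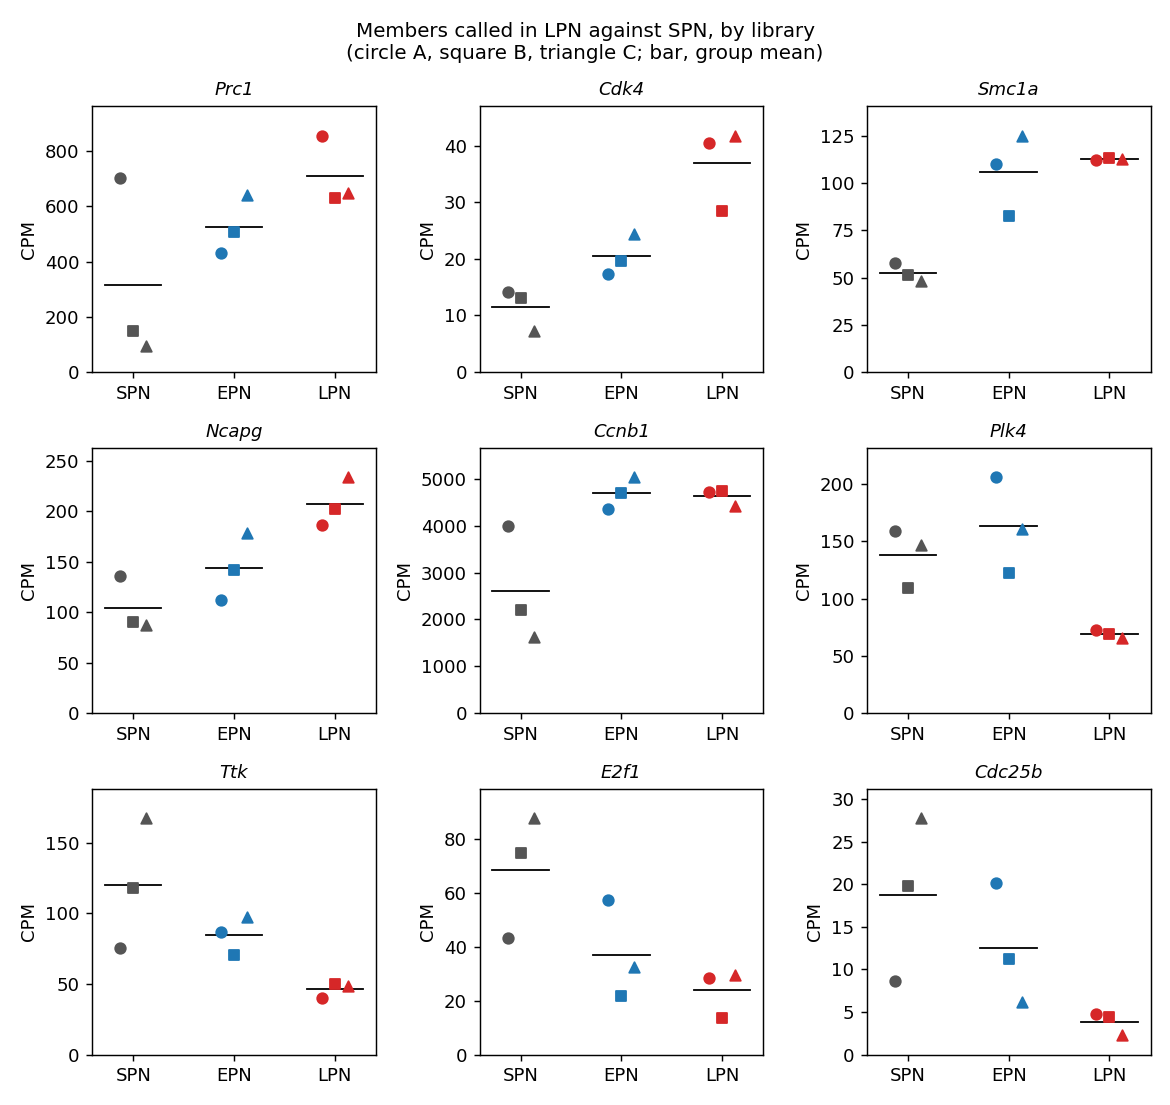
CPM (vertical axes, from 0) of the 9 members called in LPN against SPN, with 1 point for each library (circle A, square B, triangle C) and a bar at the mean of each group. Prc1 in SPN A, at 703 CPM, lies with the EPN and LPN libraries, while Plk4 is low in the 3 LPN libraries, at 65.4 to 72.6 CPM.

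Among cyclins, Ccnb1, the mitotic cyclin B1, was at 3992, 2205 and 1624 CPM in SPN, 4356, 4693 and 5032 CPM in EPN and 4712, 4739.6 and 4421 CPM in LPN. SPN B and SPN C were low and SPN A came close to the other groups, whose libraries all lay above it. Ccnb1 rose 1.9-fold in LPN (log2 difference 0.93, SE 0.30, limma adjusted p = 0.0446). EPN and LPN differed by -0.02 (95% interval -0.62 to 0.58), and EPN against SPN did not pass (log2 difference 0.95, adjusted p = 0.213). Without SPN A the log2 difference was 1.29 (adjusted p = 0.000905). The call was lost (log2 difference in brackets) without SPN B (0.86), SPN C (0.64), EPN A (0.93), EPN B (0.93), EPN C (0.93), LPN A (0.92), LPN B (0.91) or LPN C (0.96), and with a pseudocount of 0.1 CPM (0.93), no filter (0.93), median-of-ratios scaling (1.12), TMM scaling (1.08), edgeR (0.91) or a fit of the 6 libraries (0.93). A processed copy, Ccnb1-ps, is also listed, from 11.1 to 27.7 CPM in SPN and from 31.8 to 88.7 CPM in LPN, so reads of Ccnb1 may be split between both.

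The other cyclins did not pass in any comparison. Ccna2, cyclin A2 of replication and mitosis, was at 900.5, 729 and 737 CPM in SPN, 645, 703 and 928 CPM in EPN and 619, 534 and 791 CPM in LPN, with overlapping groups. Ccne1, which acts with CDK2 at the start of replication, was at 449 ± 103 CPM in SPN, 374 ± 82.4 CPM in EPN and 384 ± 138 CPM in LPN (SD, n = 3), and Ccne2 was at 87.3 ± 23.9, 76.2 ± 7.33 and 73.3 ± 6.43 CPM. The second B cyclin, Ccnb2, was lowest in LPN B and LPN C, at 42 and 32.8 CPM, against 54 to 69.3 CPM in SPN and EPN. Ccnb3, best known from meiosis, varied from 2.3 to 34.7 CPM within and across groups. The D cyclins, which answer to growth signals, were low: Ccnd1 was at 12.2, 3.46 and 19.9 CPM in SPN, 7.16, 7.97 and 7.72 CPM in EPN and 0, 3.42 and 5.45 CPM in LPN (log2 LPN minus SPN -1.81, adjusted p = 0.0861). Ccnd2 stayed under 7 CPM in 8 libraries and reached 23.3 CPM in SPN C, and Ccnd3 ran from 2.23 to 18.3 CPM. Ccna1 had 122 reads, all in SPN B (5.76 CPM) and SPN C (4.99 CPM), and 0 in the other 7 libraries, where a count of 0 allows up to 0.193 to 0.394 CPM.

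Levels of different genes are compared only per kb of the longest coding transcript in GENCODE M21, an annotation of GRCm38, because longer transcripts give more reads. On this scale Ccnb1 led the cyclins, at 1047 ± 496 CPM per kb in SPN, 1886 ± 136 in EPN and 1858 ± 71 in LPN. Ccna2 (266 ± 32.6 in SPN) and Ccne1 (224 ± 51.5) came next and did not differ beyond their spread, followed by Ccnb2 (38.7 ± 3.17) and Ccne2 (29 ± 7.95), which overlapped in the same way. In SPN, Ccnd3 was at 6.57 ± 3.55, Ccnd1 at 3.17 ± 2.2, Ccnb3 at 2.64 ± 1.85 and Ccnd2 at 1.24 ± 2.11 CPM per kb, with spreads that overlapped. The transcript that embryos use may be shorter than the longest one, so these levels are approximate.

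**Figure D2:**
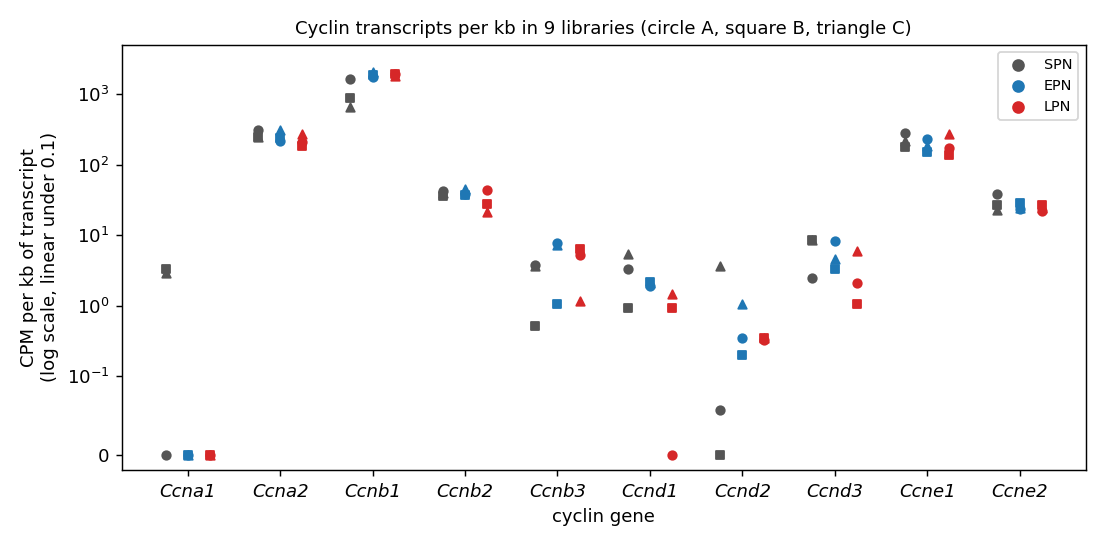
CPM per kb of the longest annotated coding transcript (vertical axis, logarithmic and linear under 0.1) for the 10 cyclin genes, with 1 point for each of the 9 libraries (circle A, square B, triangle C). Ccnb1 lies highest in every library, and Ccna1 has points above 0 in SPN B and SPN C only.

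Among CDKs, Cdk4, the partner of D cyclins, was at 14.1, 13 and 7.17 CPM in SPN, 17.3, 19.7 and 24.3 CPM in EPN and 40.4, 28.5 and 41.7 CPM in LPN. The 3 groups did not overlap and were ordered SPN, EPN, LPN. Cdk4 rose 3.11-fold in LPN (log2 difference 1.64, SE 0.44, limma adjusted p = 0.0204), and neither EPN against SPN (0.82, adjusted p = 0.485) nor LPN against EPN (0.81, adjusted p = 0.306) passed. Its call did not hold (log2 difference in brackets) without SPN C (1.36), LPN A (1.56), LPN B (1.81) or LPN C (1.54). Exons of Cdk4 overlap exons of Tspan31 on the opposite strand in GENCODE M21, whose own log2 difference was 0.21 (adjusted p = 0.791).

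Cdk1, the mitotic kinase, was at 940.0, 710.4 and 510.0 CPM in SPN, 752, 838 and 964 CPM in EPN and 1112, 1048 and 1126 CPM in LPN. The LPN libraries were the highest 3 of the 9, yet the difference did not pass (log2 0.65, 95% interval 0.10 to 1.19, adjusted p = 0.116). Cdk2 was at 40.6 ± 9.99, 64.7 ± 13.5 and 63.7 ± 28.8 CPM in SPN, EPN and LPN, and Cdk6 was at 6 ± 2.6, 1.38 ± 0.962 and 2.56 ± 2.14 CPM (SD, n = 3).

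Cdc25b, a phosphatase that activates CDK1, was at 8.6, 19.8 and 27.7 CPM in SPN, 20.2, 11.2 and 6.14 CPM in EPN and 4.76, 4.47 and 2.35 CPM in LPN. All 3 LPN libraries lay under every SPN and EPN library. Cdc25b fell 3.79-fold in LPN (log2 difference -1.92, SE 0.58, limma adjusted p = 0.0354). Without SPN A the log2 difference was -2.37 (adjusted p = 0.00874). It no longer passed (log2 difference in brackets) without SPN B (-1.81), SPN C (-1.58), LPN A (-2.06), LPN B (-2.03) or LPN C (-1.67), and with no filter (-1.92), edgeR (-2.04) or a fit of the 6 libraries (-1.92). The other family members did not pass: Cdc25c was at 350.1, 176 and 188 CPM in SPN, 279.9, 259 and 248 CPM in EPN and 287, 272 and 267 CPM in LPN, and Cdc25a was at 24.6 ± 9.5, 17.9 ± 6.13 and 13.4 ± 5.35 CPM. Wee1, which inhibits CDK1, had overlapping groups, from 41.5 to 83.9 CPM.

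E2f1, a transcription factor that switches on replication genes, was at 43.3, 74.6 and 87.5 CPM in SPN, 57.2, 21.6 and 32.4 CPM in EPN and 28.3, 13.5 and 29.7 CPM in LPN. Every LPN library lay under every SPN library, and the EPN libraries overlapped both groups. E2f1 fell 2.83-fold in LPN (log2 difference -1.50, SE 0.41, limma adjusted p = 0.0248), and EPN against SPN was -0.92 (adjusted p = 0.41). The adjusted p missed the threshold (log2 difference in brackets) without SPN B (-1.41), SPN C (-1.30) or LPN B (-1.15), and with no filter (-1.50) or edgeR (-1.35). Rb1, the E2F repressor, did not pass, with 134 ± 43.7 CPM in SPN against 95.3 ± 16.8 in LPN. E2f3 stayed at or under 3.1 CPM. Cdkn1b, the CDK inhibitor p27, had 49 reads in SPN, 48 in EPN and 0 in LPN, at most 2.36 CPM in any library, and did not pass (adjusted p = 0.187).

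Of the mitotic kinases and passenger complex genes 1 of 8 fell in LPN. Plk4, the kinase that starts centriole duplication, was at 159, 109.7 and 147 CPM in SPN, 206, 122 and 161 CPM in EPN and 72.6, 69.1 and 65.4 CPM in LPN. The LPN libraries lay close together and under every other library, and SPN and EPN overlapped. Plk4 fell 1.97-fold against SPN (log2 difference -0.98, SE 0.30, limma adjusted p = 0.0391). The call was lost (log2 difference in brackets) without SPN B (-1.14), SPN C (-0.93), EPN C (-0.98), LPN A (-1.01), LPN B (-0.98) or LPN C (-0.94), and with no filter (-0.98), median-of-ratios scaling (-0.79), TMM scaling (-0.83), edgeR (-0.87) or a fit of the 6 libraries (-0.98). It was the one member called in LPN against EPN (log2 difference -1.20, SE 0.30, adjusted p = 0.0389), where 1.53% of all tested genes were called, 0.692% as higher and 0.84% as lower. Its call did not hold (log2 difference in brackets) without EPN A (-1.01), EPN C (-1.19), LPN A (-1.23), LPN B (-1.20) or LPN C (-1.16), and with a pseudocount of 0.1 CPM (-1.21), no filter (-1.20), median-of-ratios scaling (-1.07), TMM scaling (-1.10) or edgeR (-1.12).

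Plk1, which acts from mitotic entry to cytokinesis, was at 77.9, 101 and 93.7 CPM in SPN, 88.1, 77 and 103 CPM in EPN and 47.2, 24.7 and 86.4 CPM in LPN. LPN A and LPN B were low and LPN C was not (log2 LPN minus SPN -0.94, adjusted p = 0.0919). Without LPN C this difference was -1.37 and passed, as did that of Incenp, and Plk1 then also passed as lower in LPN against EPN. Aurka, the centrosome and spindle kinase Aurora A, was at 678, 184 and 176 CPM in SPN, 409, 379.8 and 548 CPM in EPN and 482, 365 and 478 CPM in LPN. SPN A was the highest of all 9 libraries and SPN B and SPN C the lowest. Aurkb, the kinase of the passenger complex, had the same order among sham libraries: SPN A reached 114 CPM, SPN B 48.8 CPM and SPN C 39.6 CPM. Aurkc, the Aurora kinase of germ cells and early embryos, was at 205 ± 27.1, 176 ± 30.4 and 164 ± 26.1 CPM in SPN, EPN and LPN (SD, n = 3). Per kb in SPN, Aurka was at 182 ± 151, Aurkc at 146 ± 19.4 and Aurkb at 34.6 ± 20.7 CPM. Aurkb was lower than Aurkc, and Aurka did not differ from either beyond its wide spread. In EPN, Aurka, Aurkc and Aurkb were at 234 ± 47.3, 125 ± 21.7 and 34.8 ± 8.8 CPM per kb. The remaining passenger subunits did not pass: the scaffold gene Incenp ran from 33.8 to 111 CPM, the survivin gene Birc5 from 627 to 988 CPM and the borealin gene Cdca8 from 524 to 1086 CPM.

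The spindle checkpoint delays anaphase until kinetochores are attached, and 1 of its 5 genes fell. Ttk, which encodes the kinase MPS1 at the top of the checkpoint, was at 75.8, 118 and 167 CPM in SPN, 86.9, 70.5 and 97.7 CPM in EPN and 40.1, 50.2 and 48.9 CPM in LPN. All LPN libraries lay under all others, and SPN C was the highest. Ttk fell 2.45-fold in LPN (log2 difference -1.29, SE 0.33, limma adjusted p = 0.0164). It no longer passed (log2 difference in brackets) without SPN B (-1.27), SPN C (-1.02), LPN A (-1.19) or LPN B (-1.35). The other 4 had overlapping groups in LPN against SPN: Mad2l1 was at 549 ± 159 and 622 ± 201 CPM, Bub3 at 172 ± 83 and 185 ± 46.7 CPM, the kinase gene Bub1 at 119 ± 34.8 and 135 ± 6.7 CPM, and Bub1b, which encodes BUBR1, at 43.3 ± 10.8 and 41.2 ± 14.7 CPM (SD, n = 3). Bub1b was lowest in EPN B, at 11.9 CPM (log2 EPN minus SPN -0.83, adjusted p = 0.463).

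None of the 7 kinetochore and centromere genes passed in LPN against SPN with limma on the deposited values of all libraries. An unadjusted p under 0.05 was found for 2 of them, and for 26.9% of all tested genes. Ndc80 passed as higher with median-of-ratios or TMM scaling, among genes averaging 5 CPM or more and with the replicate block, and without SPN A both Cenpe and Ndc80 did. edgeR called 0 of them and DESeq2 called these 2, Cenpe and Ndc80, as higher. Ndc80, which names the complex that grips microtubules, was at 123, 92.8 and 103 CPM in SPN, 117, 129 and 116 CPM in EPN and 192, 217 and 171 CPM in LPN. The LPN libraries lay above the other 6 (log2 LPN minus SPN 0.86, 95% interval 0.28 to 1.44, adjusted p = 0.0528). Of the other subunits of that complex, Nuf2 had 184 ± 27.2 CPM in SPN against 155 ± 70.8 in LPN, Spc25 at 388 ± 52.2 and 392 ± 152 CPM and Spc24 at 16.4 ± 3.14 and 21.7 ± 2.52 CPM. Per kb, Spc25 was the most abundant of the 4 in SPN (254 ± 34.2), followed by Nuf2 (76.7 ± 11.3), Ndc80 (48.2 ± 6.95) and Spc24 (9.69 ± 1.85 CPM per kb).

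Cenpe, a motor that carries chromosomes to the spindle equator, was at 382, 254 and 281 CPM in SPN, 464, 458 and 479 CPM in EPN and 436, 536 and 443 CPM in LPN. Every EPN and LPN library lay above every SPN library, but neither difference passed (log2 0.63 in EPN, adjusted p = 0.361; 0.64 in LPN, adjusted p = 0.115). Cenpf, a large outer kinetochore protein, was highest in EPN, at 252 ± 54.6 CPM against 158 ± 46.5 in SPN and 163 ± 14 in LPN. Cenpa, the histone variant of the centromere, was at 555 ± 74, 438 ± 78.2 and 549.9 ± 58.4 CPM in SPN, EPN and LPN (SD, n = 3), and its 95% interval of the log2 difference of LPN from SPN was -0.55 to 0.52.

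Spindle and cytokinesis genes had a median log2 difference of 0.71 in LPN against SPN, the highest of the 8 roles, and all 6 had a positive value, as did 43.0% of all tested genes; 1 of the 6 passed. Prc1, which bundles the antiparallel microtubules of the central spindle, was at 703, 149 and 94.9 CPM in SPN, 429.7, 506 and 642 CPM in EPN and 855, 632 and 647 CPM in LPN. SPN B and SPN C were low, and SPN A was as high as the EPN and LPN libraries. Prc1 rose 3.26-fold in LPN (log2 difference 1.70, SE 0.41, limma adjusted p = 0.0107), and without SPN A by 2.56 on the log2 scale (adjusted p = 9.97e-06). The adjusted p missed the threshold (log2 difference in brackets) without SPN B (1.44), SPN C (1.12) or LPN B (1.78), and with no filter (1.70), edgeR (1.19) or DESeq2 (1.23). Exons of Prc1 overlap exons of Rccd1 on the opposite strand, whose own log2 difference was 0.78 (adjusted p = 0.243). Over the 9 libraries the log2(CPM + 1) values most like those of Prc1 among the members were those of Ccnb1 (Pearson r = 0.96), Tpx2 (0.93) and Aurka (0.93). This is a description over 9 libraries that share the groups and the position of SPN A.

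Tpx2, which activates Aurora A and nucleates spindle microtubules, was at 601, 325 and 296 CPM in SPN, 589.8, 624 and 849 CPM in EPN and 644, 626 and 776 CPM in LPN. SPN B and SPN C were again the lowest, and neither LPN (log2 0.81, adjusted p = 0.0652) nor EPN (0.81, adjusted p = 0.273) passed against SPN. Kif11, the motor that pushes spindle poles apart, was at 182, 187 and 151 CPM in SPN, 177, 187 and 175 CPM in EPN and 286, 381 and 242 CPM in LPN. The LPN libraries were the highest 3, and SPN and EPN overlapped (log2 LPN minus SPN 0.78, adjusted p = 0.067). Kif23, a motor of the central spindle, was at 198 ± 14.7, 167 ± 9.81 and 245 ± 30.7 CPM, the contractile ring scaffold gene Anln at 153 ± 39.1, 188 ± 38 and 232 ± 8.18 CPM, and Ect2, which acts in cytokinesis, at 112 ± 56.6, 84.7 ± 17.5 and 113 ± 11.7 CPM in SPN, EPN and LPN (SD, n = 3).

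Cohesin holds sister chromatids in a ring of SMC1A, SMC3 and RAD21 with a STAG subunit, and separase (Espl1) opens it once securin (Pttg1) is destroyed. Smc1a was at 57.5, 51.5 and 48.3 CPM in SPN, 110.3, 82.7 and 125 CPM in EPN and 112, 114 and 113 CPM in LPN. All 6 transfer libraries lay above all 3 SPN libraries, and SPN A was here close to SPN B and SPN C. Smc1a rose 2.14-fold in LPN (log2 difference 1.10, SE 0.31, limma adjusted p = 0.0261), and EPN against SPN was 0.99 (adjusted p = 0.213). The call was lost (log2 difference in brackets) without SPN B (1.09), SPN C (1.04), LPN A (1.10) or LPN B (1.09), and with a fit of the 6 libraries (1.10).

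Smc3 was at 219.9, 121 and 97.7 CPM in SPN, 219, 261 and 329 CPM in EPN and 227, 251 and 279 CPM in LPN. Its SPN A value lay beside the lowest EPN and LPN values, and neither comparison with SPN passed (adjusted p = 0.0637 in LPN and 0.227 in EPN). Stag2 was at 143, 125 and 120.2 CPM in SPN, 193, 203 and 262 CPM in EPN and 242, 227 and 177 CPM in LPN, with every EPN and LPN library above every SPN library (adjusted p = 0.0938 and 0.31 for LPN and EPN). Rad21, the subunit that separase cuts, was at 148, 310.1 and 315 CPM in SPN, 180.2, 197 and 248 CPM in EPN and 167, 149 and 239 CPM in LPN; SPN B and SPN C were the highest, and the groups overlapped. Stag1 was at 56.3 ± 13.9, 79.8 ± 24.5 and 51.1 ± 6.61 CPM, Espl1 at 84.5 ± 20.7, 67.9 ± 9.43 and 65.7 ± 25.6 CPM and Pttg1 at 1818 ± 355, 2212 ± 374 and 2398 ± 339.7 CPM in SPN, EPN and LPN (SD, n = 3). Per kb in SPN, Rad21 was at 65.2 ± 24, Smc3 at 30.2 ± 13.4, Stag2 at 21 ± 1.98, Smc1a at 11.2 ± 0.999 and Stag1 at 9.1 ± 2.25 CPM. The cohesin genes as a role had a median log2 difference of 0.41 in LPN and 0.47 in EPN against the same SPN libraries.

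Condensin I folds chromosomes through SMC2 and SMC4 with 3 further subunits, and 1 of its 5 genes rose. Ncapg was at 136, 90.2 and 87.6 CPM in SPN, 112, 142 and 178 CPM in EPN and 187, 202 and 234 CPM in LPN. The LPN libraries were the highest of the 9, and SPN A lay inside the EPN range. Ncapg rose 2.01-fold in LPN (log2 difference 1.005, SE 0.30, limma adjusted p = 0.0327). Its call did not hold (log2 difference in brackets) without SPN B (0.91), SPN C (0.89), LPN A (1.08), LPN B (1.02) or LPN C (0.92), and with no filter (1.005), edgeR (1.09) or a fit of the 6 libraries (1.005). The other 4 overlapped between LPN and SPN and did not pass. Smc2 had 50.6 ± 11.9 CPM in SPN against 53.7 ± 21.6 in LPN, Smc4 at 175 ± 44.7 and 161 ± 60.7 CPM, Ncapd2 at 60.2 ± 19 and 40.4 ± 15 CPM and Ncaph at 28.5 ± 2.57 and 25.5 ± 7.84 CPM (SD, n = 3). In EPN, Smc2 was lowest, at 32.5 ± 12.3 CPM (log2 LPN minus EPN 0.71, adjusted p = 0.314). The role had a median log2 difference of -0.16 in LPN against SPN and the median of all tested genes was -0.17. Exons of Ncapg overlap exons of Lcorl on the opposite strand, whose own log2 difference was -0.45 (adjusted p = 0.704), and exons of Cdc25b likewise overlap exons of Spef1 (1.04, adjusted p = 0.275).

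**Figure D3:**
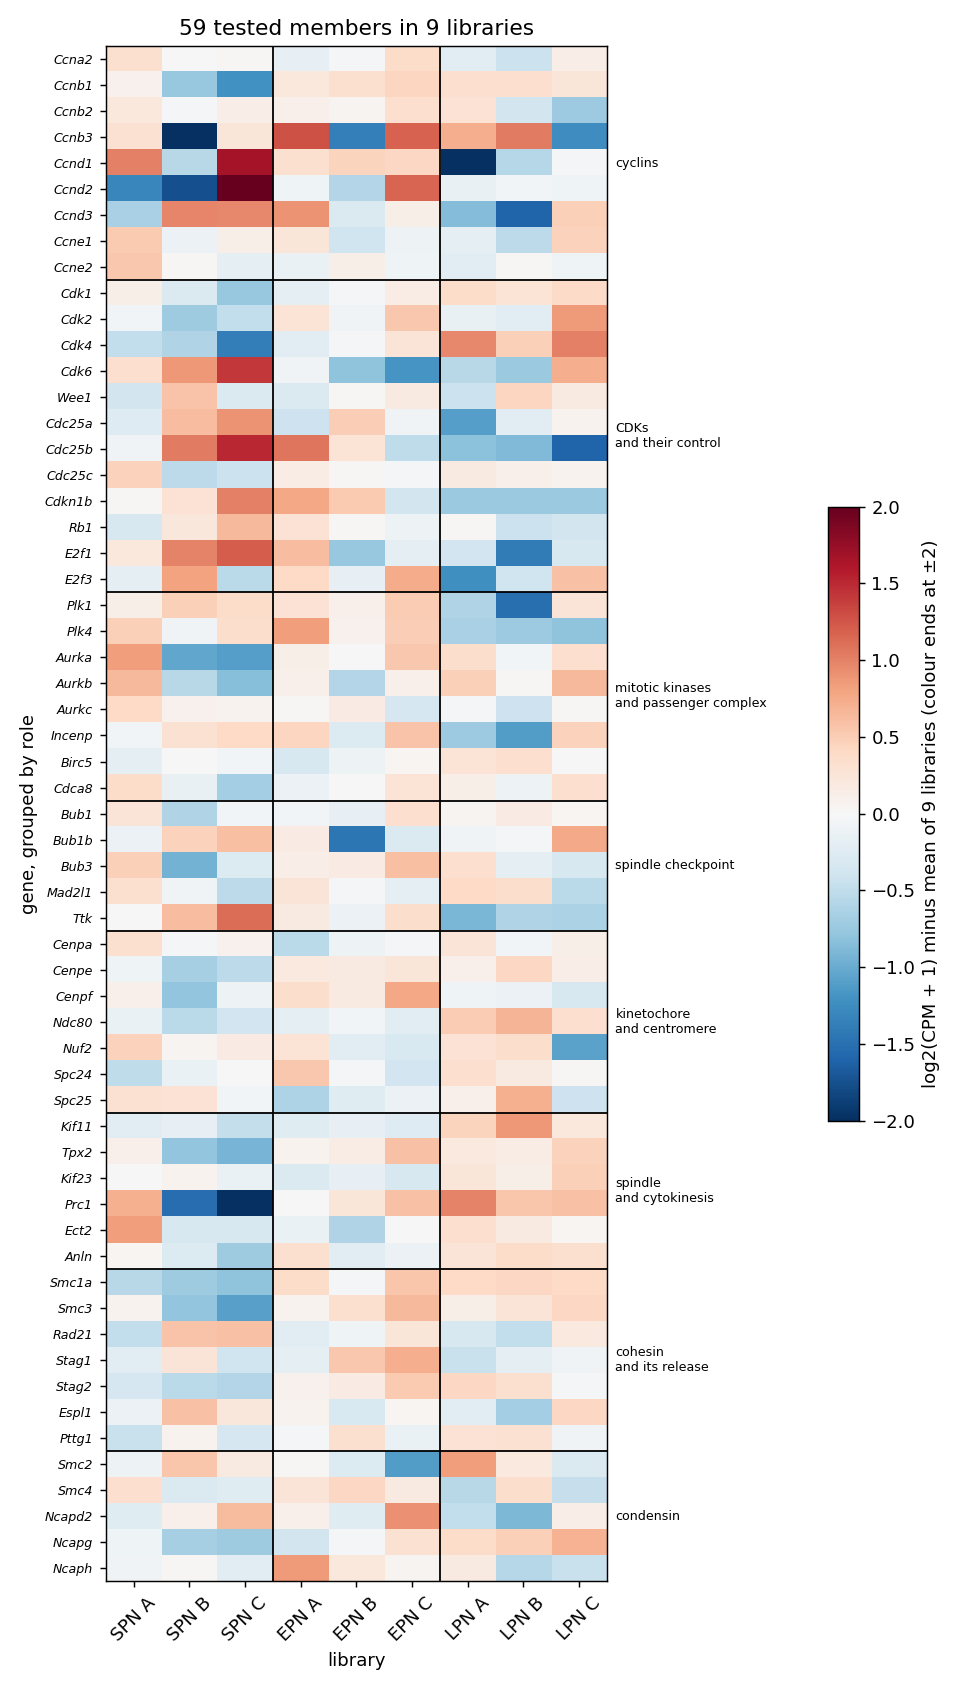
Colour shows log2(CPM + 1) of the 59 tested members minus each gene's mean over the 9 libraries (columns), grouped by role (rows). SPN B and SPN C are blue for Prc1, Aurka, Tpx2 and Ccnb1, where SPN A is not, and the 3 LPN libraries are blue for Plk4, Ttk and Cdc25b.

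Set side by side, the median log2 differences in LPN against SPN were -0.26 for cyclins, -0.41 for CDKs and their control, -0.02 for mitotic kinases and the passenger complex, 0.16 for the checkpoint and 0.09 for the kinetochore. For the remaining roles they were 0.71 for the spindle, 0.41 for cohesin and -0.16 for condensin. Measured from the median of all tested genes, cyclins (-0.09) and CDKs (-0.24) lay below it, condensin at it (0.01) and mitotic kinases above it (0.14), so the signs for condensin and the mitotic kinases turned with the reference; the other 4 roles lay above 0 either way. In EPN against SPN the median was highest for cohesin (0.47) and condensin (0.35) and lowest for cyclins (-0.07). In LPN against EPN it was highest for the spindle (0.43, with all 6 values positive) and lowest for condensin (-0.51). These medians rest on 5 to 12 genes each and were not tested against each other.

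Early transfer against sham addresses the same question for an early move. No member passed with limma, where 0.108% of all tested genes were called, 0.0739% as higher and 0.0336% as lower; 10 members (16.9%) had an unadjusted p under 0.05, as did 11% of all tested genes. edgeR called 0 members, and DESeq2 called 1, Smc1a, among 117 genes in all. EPN and LPN are set against the same 3 SPN libraries, so their differences from SPN are not independent of each other. The groups did not overlap for 10 members (16.9%, against 14.6% of all tested genes), 7 that were higher in EPN (11.9%, against 7.07%) and 3 that were lower (5.08%, against 7.56%). The largest positive differences among members with non-overlapping groups were those of Smc1a (0.99, 95% interval 0.36 to 1.61), Ccnb1 (0.95, 0.35 to 1.55) and Cdk4 (0.82, -0.06 to 1.71). On the other side Cdk6 was at 3.58, 5.67 and 8.75 CPM in SPN and 2.46, 1.09 and 0.599 CPM in EPN (log2 EPN minus SPN -1.56, adjusted p = 0.358), Spc25 at 388 ± 52.2 and 274 ± 46.5 CPM and Kif23 at 198 ± 14.7 and 167 ± 9.81 CPM.

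**Figure D4:**
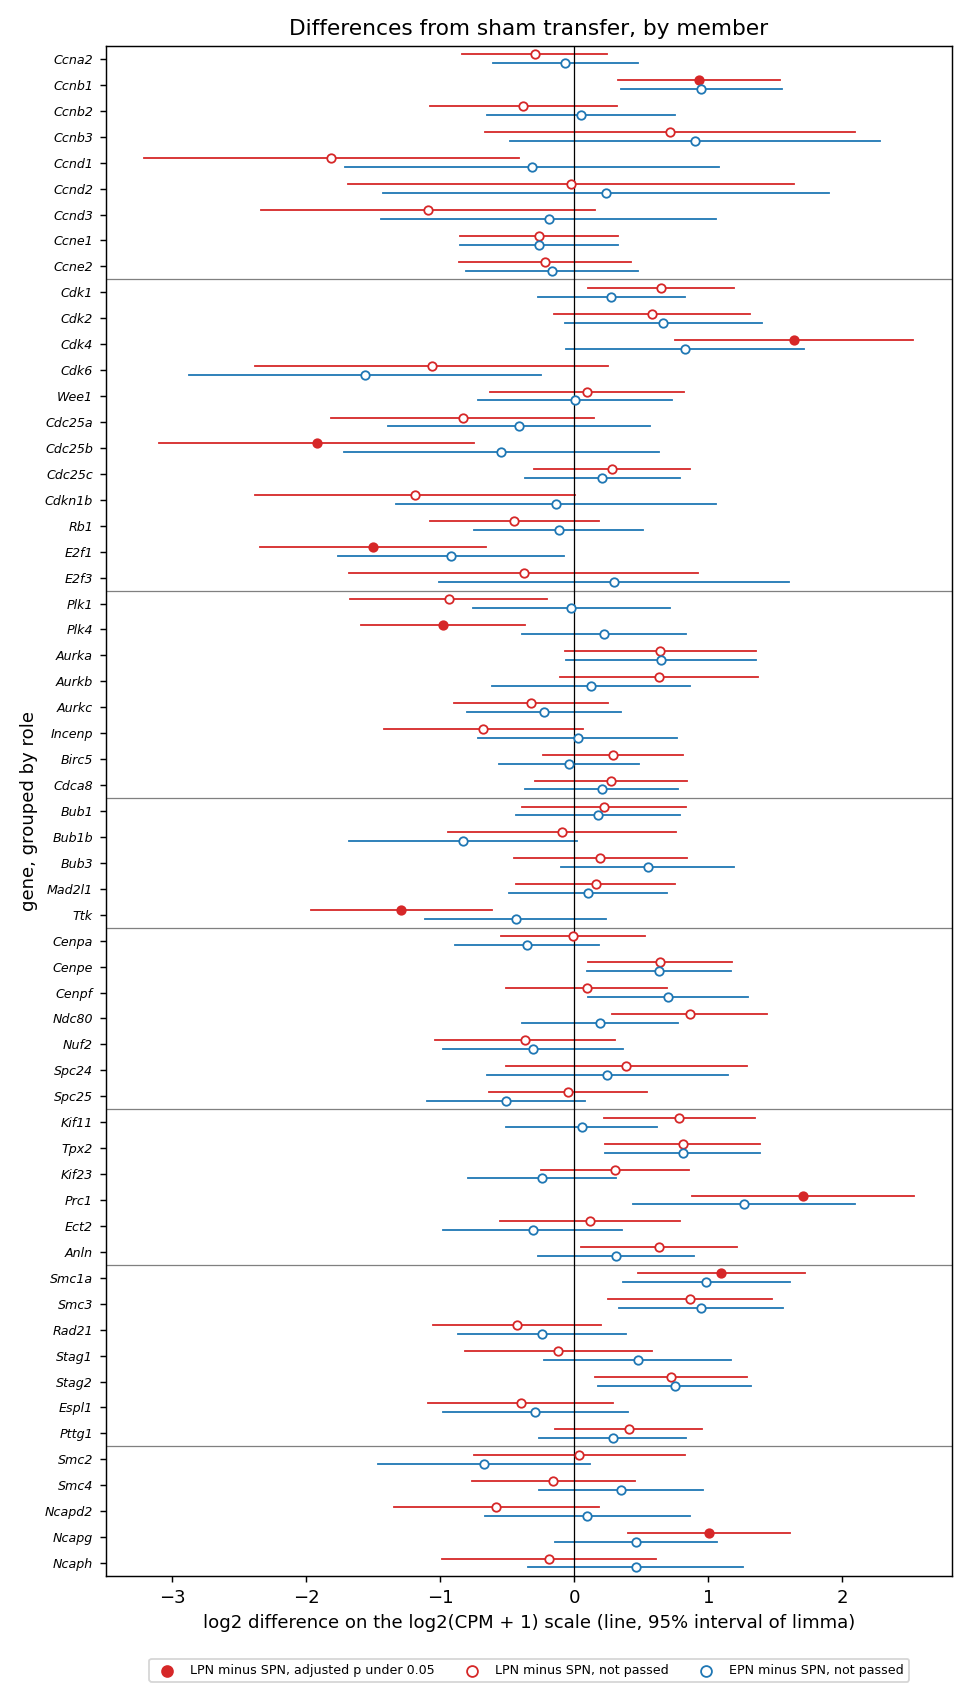
Log2 differences from SPN on the log2(CPM + 1) scale (horizontal axis) for the 59 tested members (rows, grouped by role), red for LPN and blue for EPN, with 95% intervals of limma as lines and filled points for an adjusted p under 0.05. Filled points are the 9 calls of LPN against SPN; no EPN point is filled.

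Later and early transfer were also compared directly, to ask whether the timing itself goes with a difference. Besides Plk4, described above, no member passed with limma on all libraries, and 8 members (13.6%) had an unadjusted p under 0.05, as did 19.3% of all tested genes. Of the 9 members called in LPN against SPN, Ccnb1 (-0.02, 95% interval -0.62 to 0.58) and Smc1a (0.11, -0.51 to 0.73) had log2 differences near 0 between LPN and EPN, with intervals that leave room for a change in either direction. Cdc25b (-1.38, -2.55 to -0.20) and Ttk (-0.85, -1.53 to -0.18) were lower in LPN than in EPN in all libraries, without passing (adjusted p = 0.186 and 0.153). Among members not called against SPN, Ndc80 (0.67, adjusted p = 0.193) and Kif11 (0.73, adjusted p = 0.143) were higher in every LPN library than in every EPN library. The groups did not overlap for 13 members (22%, against 26.6% of all tested genes), 7 of them higher in LPN than in EPN (11.9%, against 11.3%) and 6 of them lower (10.2%, against 15.3%), shares near or under those of all genes.

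The values of SPN A differed from those of the other sham libraries for several of these genes. Its log2(CPM + 1) was more than 1 above the mean of SPN B and SPN C for 8 of 59 tested members (13.6%, against 9.27% of all tested genes): Ccnb1, Ccnb3, Aurka, Aurkb, Bub3, Prc1, Ect2 and Smc3. It was more than 1 below for 5 (8.47%, against 20.1%): Ccnd2, Ccnd3, Cdc25a, Cdc25b and Rad21. For Ccnb3 and Ccnd2 SPN A was not the library that stood off. Ccnb3 was at 17.3 CPM in SPN A, 2.3 in SPN B and 16.5 in SPN C, and Ccnd2 at 0.358, 0 and 23.3 CPM. Without SPN A, LPN differed from SPN in 20 members (15 up, 5 down), and these included all 9 calls above; over all genes the count went from 1309 to 2733. The 11 added were Cdk1, Aurka, Aurkb, Cenpe, Ndc80, Kif11, Tpx2, Anln, Smc3 and Stag2 as higher and Rad21 as lower. In EPN against SPN 6 members were then called, all higher: Prc1 (log2 difference 2.12), Ccnb1 (1.31), Aurka (1.28), Smc3 (1.28), Tpx2 (1.13) and Smc1a (1.05), with 451 of all tested genes. For Aurka, the log2 difference of LPN from SPN was 0.64 (adjusted p = 0.233) with all libraries and 1.28 (adjusted p = 0.00176) without SPN A. The labels give no reason to set this library aside, so the values with all 9 libraries stand as the result.

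**Figure D5:**
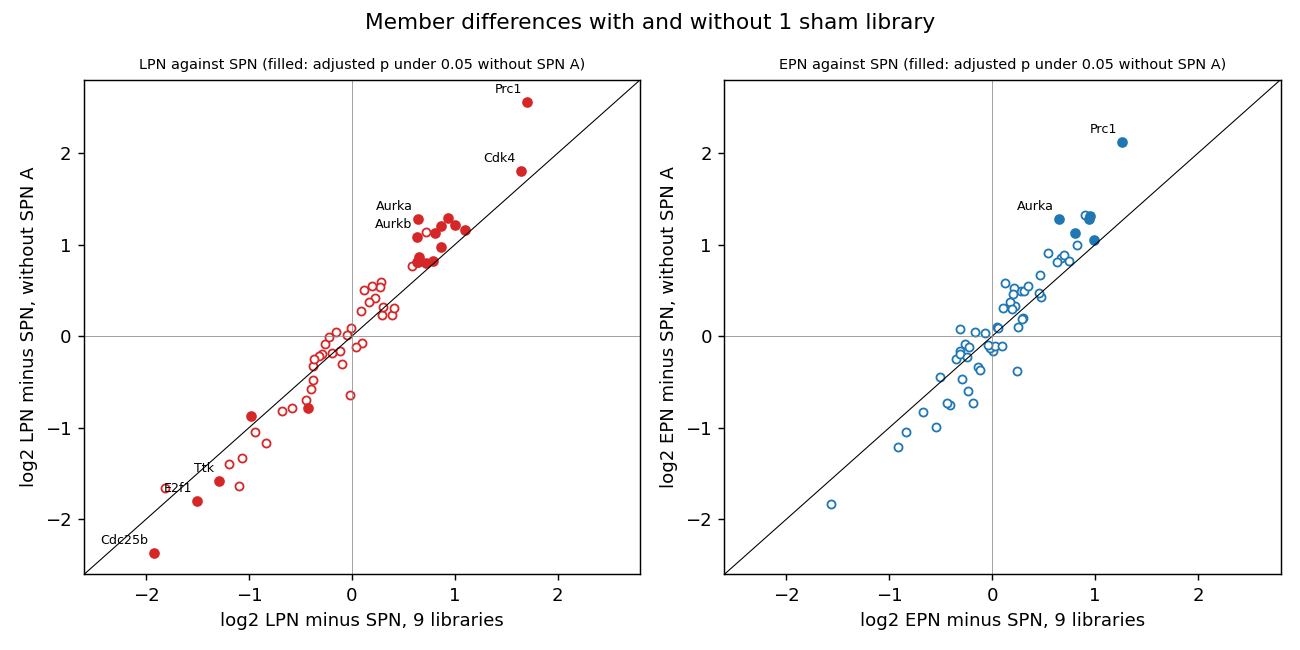
Log2 differences of the 59 tested members from SPN with all 9 libraries (horizontal) and without SPN A (vertical), for LPN (left) and EPN (right), with the line of equal values. Points filled for an adjusted p under 0.05 without SPN A number 20 on the left and 6 on the right, and Prc1 lies farthest above the line in both.

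A further 110 genes of the same pathways were listed by function, of which 107 were tested. In LPN against SPN 9 of them rose and 5 fell, together 14 of 107, where 8.8% of all tested genes were called, 3.26% as higher and 5.54% as lower, and the median log2 difference was 0.17. The split moved to 9 higher and 1 lower with median-of-ratios scaling and to 7 and 1 with TMM scaling, both of which left E2f5 as the one gene called lower and ended the calls of E2f4, Ppp2r5c, Cenpn and Hjurp. Under the 18 alternatives this count ran from 2 to 38, the highest without SPN A and the lowest without SPN C and without LPN B; Cenpm and E2f5 were called in all of them. Among kinetochore and centromere genes 5 of 37 rose and 2 fell. Cenpm went from 16.4 ± 4.01 to 65.4 ± 4.25 CPM (log2 difference 1.96, limma adjusted p = 0.00333), Zwilch, of the complex that recruits dynein to kinetochores, from 36.1 ± 1.68 to 86.7 ± 24.6 CPM, and Mad2l1bp, which encodes the checkpoint silencer p31comet, from 1108 ± 737 to 1942 ± 222 CPM. Hjurp, the chaperone that loads CENP-A, fell from 103 ± 15.6 to 52.1 ± 11.5 CPM and Cenpn, which binds the CENP-A nucleosome, from 508 ± 178 to 262 ± 64.1 CPM (SD, n = 3). For Mad2l1bp the groups overlapped, since SPN A had 1945 CPM and LPN B 1687 CPM.

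Of 31 further regulators of cyclins and CDKs 2 rose and 3 fell. E2f5, a repressive E2F factor, was at 498, 459 and 668 CPM in SPN, 290.1, 208 and 220.3 CPM in EPN and 138, 120.1 and 160.2 CPM in LPN. The 3 groups did not overlap and were ordered SPN, EPN, LPN (log2 LPN minus SPN -1.94, SE 0.28, limma adjusted p = 0.000378). E2f4 fell from 66.1 ± 15.9 to 27.7 ± 15.2 CPM and the phosphatase subunit gene Ppp2r5c from 250.3 ± 90.3 to 116 ± 6.81 CPM. Ccnh, the cyclin of the CDK-activating kinase, rose from 14.7 ± 2.85 to 42.5 ± 4.15 CPM and Lin9, a subunit of the MuvB core, from 89.2 ± 43.1 to 179 ± 42.9 CPM (SD, n = 3). Of 26 spindle and cytokinesis genes 2 rose and none fell: Nusap1, which stabilizes spindle microtubules, from 295 ± 92.7 to 539.8 ± 93 CPM, and Tacc3, a spindle fibre crosslinker, from 235 ± 65.3 to 428 ± 68.7 CPM. None of 13 further cohesin and condensin genes passed with limma on all libraries, and edgeR and DESeq2 called 0. With limma 2 of the 13 had an unadjusted p under 0.05, as did 26.9% of all tested genes. With limma, Smc1b passed as higher with median-of-ratios scaling and without SPN B, Esco2 and Smc1b as higher among genes averaging 5 CPM or more and with the block, and without SPN A Esco2 as higher and Nipbl and Wapl as lower. In LPN against EPN 1 gene of the 107 passed with limma on all libraries. This was Cenpk, of the inner kinetochore, at 24 ± 6.82 CPM in EPN and 74.5 ± 31.6 CPM in LPN (limma adjusted p = 0.0378). Cenpk did not pass without EPN A, EPN C, LPN A or LPN B, with a pseudocount of 0.1 CPM, with no filter or with edgeR. DESeq2 called 12 of the 107: Ccnh, Cenpk, Cenpm, Cenpp, Cenpt, Mnat1, Oip5, Sgo1 and Zwilch as higher and Cdkn1a, Kif14 and Kifc1 as lower. Over all tested genes DESeq2 called 925. With limma, Cdkn1a passed as lower among genes averaging 5 CPM or more, with the block, in the fit of the 6 libraries, and without SPN A, SPN B or EPN C. That 6-library fit called 4 of the 107, with 464 of all tested genes, and the fit without SPN A called 5, with 762. In EPN against SPN none of the 107 passed with limma on all libraries. An unadjusted p under 0.05 was found for 14 of them, and for 11% of all tested genes. Without SPN A limma called 7 of the 107, with 451 of all tested genes. For this comparison edgeR called 0 and DESeq2 called 1, E2f5, as lower.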

How the data were processed

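The authors deposited CPM for 19359 genes in 9 libraries, 1 column for each. Per the labels' protocols, RNA of pooled embryos was amplified with a Smart-seq2 kit, made into Nextera XT libraries and read in pairs on a NovaSeq instrument. They name as tools, per the submitters' processing notes, HISAT2 2.2.1 with GRCm39, Trim Galore 0.6.7, edgeR and R 3.3.3. For the read counter, annotation, strand setting and reads with several matches the answer is not given in the sources used here. Overlapping genes on opposite strands and near-identical copies are therefore uncertain.

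All deposited values (100%) were whole multiples of 1 read within 0.01 reads, which gave whole reads and library totals. Between 3.66% and 5.68% of each total lay outside the table. A count of 0 allows up to 3 reads; such limits cover counting error only. The labels name no batch and do not say whether pools came from separate days or matings. The p-values therefore rest on the spread among the 9 libraries, which may be technical. In limma that spread is drawn more from all tested genes (25.9 prior degrees of freedom) than from the gene itself (6 residual).

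A gene was tested where 3 or more libraries reached 1 CPM (14876 genes) on log2(CPM + 1), as deposited, with limma 3.58.1 in R 4.3.3 (all 9 libraries, trend, 6 residual and 25.9 prior degrees of freedom), two-sided, with Benjamini-Hochberg adjustment. Folds come from that log2(CPM + 1) scale, which understates changes of low genes. The pipeline was tested on simulated data. Alternatives were edgeR 4.0.16 and DESeq2 1.42.0 on recovered reads, other filters, scalings and pseudocounts, a fit of 6 libraries, the replicate letter as a block, and each library left out, with the set of tested genes kept. Members, roles and lists were chosen with earlier results of these data known. Values by library are given for members that passed, the 2 of each role with the smallest p, and some further members chosen after their values were seen. Of the other pathway genes called in LPN against SPN, levels are given for all but Cenpp and Oip5, both called as higher.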

Additional observations from a re-analysis of the deposited data

How the results depend on the processing

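The count of members called in LPN against SPN, 9 with all libraries, stayed within 1.5 times with 6 of the 9 alternatives of filter, scaling, test and design and became 3 without a filter on low values (Cdk4, Smc1a and Ttk), 3 with edgeR (the same genes) and 4 in a fit of the 6 libraries. Leaving out 1 library gave 0 to 20: 20 without SPN A, 1 (Cdk4) without SPN B, 0 without SPN C and without LPN B, and 2 (Prc1 and E2f1) without LPN A. In EPN against SPN the count of members was 1 with DESeq2 and 0 to 6 when 1 library was left out. Over all tested genes these counts were 117 and 0 to 451. In LPN against EPN it was 0 with a pseudocount of 0.1 CPM, no filter, median-of-ratios or TMM scaling and edgeR, 2 with DESeq2 (Plk4 and Kif11), and 0 to 1 when 1 library was left out. Without LPN C that 1 member was Plk1, as lower, and not Plk4. Over all tested genes the calls in LPN against EPN went from 228 to 62 with that pseudocount and 0 with no filter. They numbered 179 with median-of-ratios scaling, 172 with TMM scaling, 17 with edgeR and 925 with DESeq2. With 1 library left out they ran from 4 to 762. Fewer samples or more tested genes enter some of these; otherwise the cause was not tested. None of the 9 members called in LPN against SPN changed direction under these alternatives; members near 0 did, such as Smc2 (0.04, and -0.12 without SPN A). With the replicate letter as a block 11 members were called in LPN against SPN, all 9 among them with Ndc80 and Kif11 added; same-letter libraries had correlations of their deviations of -0.02 to 0.09, so the letters are not shown to pair them. Members under 5 CPM, such as Cdkn1b and E2f3, are limited by read counts.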
